A study of Mus musculus with 6 samples.

Results

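The genes described here are the matrix metalloproteases (MMPs), the ADAM and ADAMTS proteases and the TIMPs, measured in tumours grown in lactating mice and in control mice. They were taken by symbol from the array's annotation, as every gene named Mmp, Adam or Adamts with a number and the 4 Timp genes, and each was represented by its single-gene probe set of highest mean signal. This gave 65 of the 18194 genes measured: 18 MMPs, 28 ADAMs, 15 ADAMTSs and 4 TIMPs, on 116 probe sets. Within these families the genes were taken by symbol alone, while the probe set of each gene was chosen by its measured signal. The members were chosen with earlier results of these data known.

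The cells injected, under the skin of the back, were KPC1199, a line from a mouse pancreatic carcinoma. The lactation group was 3 mice injected when pregnant or once nursing had begun, and the control group was 3 mice of the same age, not described further by the labels. All tumours were collected 20 days after injection, and each biological replicate had its own Affymetrix array. The labels give neither the strain nor which lactation mice were still pregnant at injection, and all 6 tumours come from 1 cell line, implanted outside the pancreas.

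MMPs are secreted or membrane-bound zinc endopeptidases that cut collagens, laminins and other matrix proteins, and most are made as inactive precursors. ADAMs are membrane proteins, several of which release growth factors, cytokines and receptors from the cell surface, while others lack an active protease and act in adhesion or in fertilisation. ADAMTSs are secreted relatives that process procollagens and cut aggrecan, versican and related proteoglycans. TIMPs are small secreted inhibitors that bind the active site of these enzymes, and in pancreatic carcinoma much of the system is made by fibroblasts and myeloid cells of the stroma. In a bulk tumour, fewer cells of a type and less RNA per cell cannot be told apart.

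The values are MAS5 signals, the linear intensities deposited for each probe set, and differences are given as lactation minus control on the log2(signal + 16) scale, which understates the change of dim genes. The arrays had medians from 99.3 to 111 and trimmed means of 500.0. All 10 listed markers of ductal epithelium passed the level filter, which asks that at least 3 of 6 arrays lie at or above their own median, and their summed signal was 77160 to 107143 in lactation and 70736 to 90560 in controls. None of the 9 measured genes of mammary secretory epithelium passed it, with sums of 172 to 1291 in lactation and 204 to 262 in controls. The sum of 1291 was that of lactation replicate 2. In that tumour Csn1s1, Csn2 and Csn3 had signals of 359, 333 and 396, above its array median of 111. In the other tumours these milk protein genes ran from 1.96 to 76.3. Nothing says whether samples within a group shared a litter or a day, so the p-values measure the spread between these 6 tumours.

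No gene of the families passed the test over all genes, and the lowest unadjusted p among them was that of Adam8, a sheddase of myeloid and tumour cells, with a log2 difference of 0.70 and groups that did not overlap. The MMPs differed more among the control tumours than between the groups: Mmp3, Mmp10, Mmp11 and Mmp13 were far higher in control replicate 3 than in the other controls, and the size or the sign of their difference depends on that tumour. Adam4, and Mmp24 and Adam7 below the level filter, also had groups that did not overlap, with higher values in lactation. Adam32, below the filter too, had lower values without overlap. With Adam8 these are 4 of the 65 members higher and 1 lower, beside 774 and 641 of 18194 genes. Timp1, Timp2 and Timp3, the inhibitors above the filter, had small negative differences with wide overlap.

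Of the 65 genes, 32 passed the level filter and 33 did not, and 0 of the 32 passed through 1 group alone. 10 MMPs, 10 ADAMs, 9 ADAMTSs and 3 TIMPs passed. Lactation was compared with control in limma across all 11622 genes above the filter, with Benjamini-Hochberg adjustment, and 0 genes were past an adjusted p of 0.05, or 0%, so that 0 members were called either. At an unadjusted p under 0.05 in the same limma fit, 1 of the 32 members was higher, beside 1.51% of all genes, and 0 were lower, beside 0.766%. Groups did not overlap in 2 members higher in lactation, beside 3.72% of all genes, and in 0 members lower, beside 3.19%. A count of 1 or 2 in 32 is close to these shares. The median log2 difference of the 32 members was -0.04, with 13 higher and 19 lower, and that of all genes was -0.01, with 5616 higher and 6006 lower.

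Adam8 had signals of 1073, 1499.5 and 1823 in the lactation tumours, against 835, 873 and 923 in the controls. All 3 lactation values lay above all 3 control values, and the lactation tumours were spread more widely. The means were 1465 ± 376 in lactation and 877 ± 44.0 in controls (SD, n = 3 each), a log2 difference of 0.70 with a 95% interval of 0.26 to 1.14. The unadjusted limma p was 0.00688 and the adjusted p was 1; 22 of the 11622 genes had a lower unadjusted p and 72 had a larger positive difference. Leaving out any 1 array gave differences from 0.53 to 0.90, the lowest without lactation replicate 3. The gene has 1 probe set here.

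Adam8 is made by neutrophils and macrophages as well as carcinoma cells, so the markers of these cells are given beside it. Of the neutrophil markers 5 of 9 passed the filter, and their summed signal was 5594 to 8702 in lactation and 4047 to 6371 in controls; Camp, Ngp, Elane and Mpo, genes of granule proteins, lay below the median on every array. All 10 macrophage markers passed, with sums of 42432 to 58468 in lactation and 56748 to 67126 in controls. The ductal markers, summed above, were higher in lactation in 10 of 10 genes with a median log2 difference of 0.24, beside 0 of 10 macrophage genes and 4 of 5 neutrophil genes. 9 of the 10 ductal genes had their highest signal in lactation replicate 3, and without that tumour 6 were higher and 4 lower, with a median of 0.10. The mast cell markers were lower in 10 of 10, with sums of 2380.3 to 3439 in lactation and 5382 to 9386 in controls. The neutrophil sum was highest in lactation replicate 1, the lactation tumour with the lowest Adam8 signal. Of the 8702 in that tumour, S100a8 gave 4601 and S100a9 gave 2466. 3 of the 5 tested neutrophil markers had their highest signal in that tumour. Csf3r, another of them, had 591, 669 and 628 in lactation, against 496, 520 and 559 in controls. Its groups did not overlap, and its lowest lactation value was in replicate 1. Cxcr2, the 1 tested marker that was lower, had 140, 81.1 and 64.5 in lactation, against 122, 96.5 and 160 in controls. Camp, below the filter, had 3.68, 6.90 and 2.25 in lactation, against 10.3, 10.5 and 9.19 in controls, without overlap in the lower direction. The part of these cells in the difference of Adam8 was not tested.

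The other sheddases had small differences. Adam10, which cuts Notch receptors, E-cadherin and amyloid precursor protein, had signals of 4989, 6129 and 4831 in lactation, against 4703, 4748 and 5252 in controls. Its log2 difference was 0.11 (95% interval -0.14 to 0.36). Adam17, which releases tumour necrosis factor and ligands of the EGF receptor, measured 2379, 2282 and 2459.8 in lactation, against 2398, 2389 and 2497 in controls. The 6 values of Adam17 lie close together, and its difference of -0.03 has an interval of -0.20 to 0.14.

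Adam9, a widely made sheddase, had signals of 3679.5, 4029.8 and 3552 in lactation, against 3403, 4516 and 4401 in controls. Adam15, found on endothelial and epithelial cells, had 1021, 1163 and 1047 in lactation, against 1025, 966 and 971 in controls. Both had overlapping groups, with log2 differences of -0.12 (interval -0.41 to 0.17) and 0.12 (interval -0.09 to 0.34). The sign of Adam15 is that of its brightest probe set: the other 3, above the filter too, had differences from -0.38 to -0.13.

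Adam12 and Adam19, made by activated fibroblasts and mesenchymal cells, showed a different layout. Adam12 had signals of 2255, 2602 and 3072 in lactation, against 1867, 2807 and 5481 in controls. Adam19 measured 1269.6, 1757 and 1687 in lactation, against 1152, 1369.5 and 2602 in controls. In both genes control replicate 3 was the highest of the 6 tumours and control replicate 1 the lowest, and the lactation values lay between them. The log2 differences were -0.22 (interval -1.07 to 0.62) and -0.04 (interval -0.74 to 0.66), and they were 0.19 and 0.31 without control replicate 3.

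Among the remaining ADAMs above the filter, Adam4, a gene known from the mouse testis, had 156, 166 and 148 in lactation, against 134, 134 and 122 in controls. Its groups did not overlap, and the log2 difference of 0.24 had an interval of -0.14 to 0.62 and an unadjusted limma p of 0.181. Adam33, a gene linked to airway smooth muscle, had a difference of 0.23, and Adam23, an adhesion protein of neurons, one of 0.13 with a control value of 60.6 in replicate 1 and 162 in replicate 2. Adam28, a protease of lymphocytes, lay below the median on every array, with 20.8, 44.8 and 27.3 in lactation and 33.0, 28.8 and 29.5 in controls. Of the 16 ADAMs known from the testis, epididymis and sperm, 1 passed the filter, Adam4, and the rest ranged from 0.30 to 66.8 on single arrays. Adam7, an epididymal gene, had groups that did not overlap at signals of 10.6, 13.6 and 23.6 in lactation and 2.65, 7.55 and 2.31 in controls, all far under the array medians, and Adam32, a testis gene, did so in the other direction with 9.98, 11.0 and 8.54 in lactation and 18.6, 20.3 and 15.1 in controls.

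**Figure D1:**
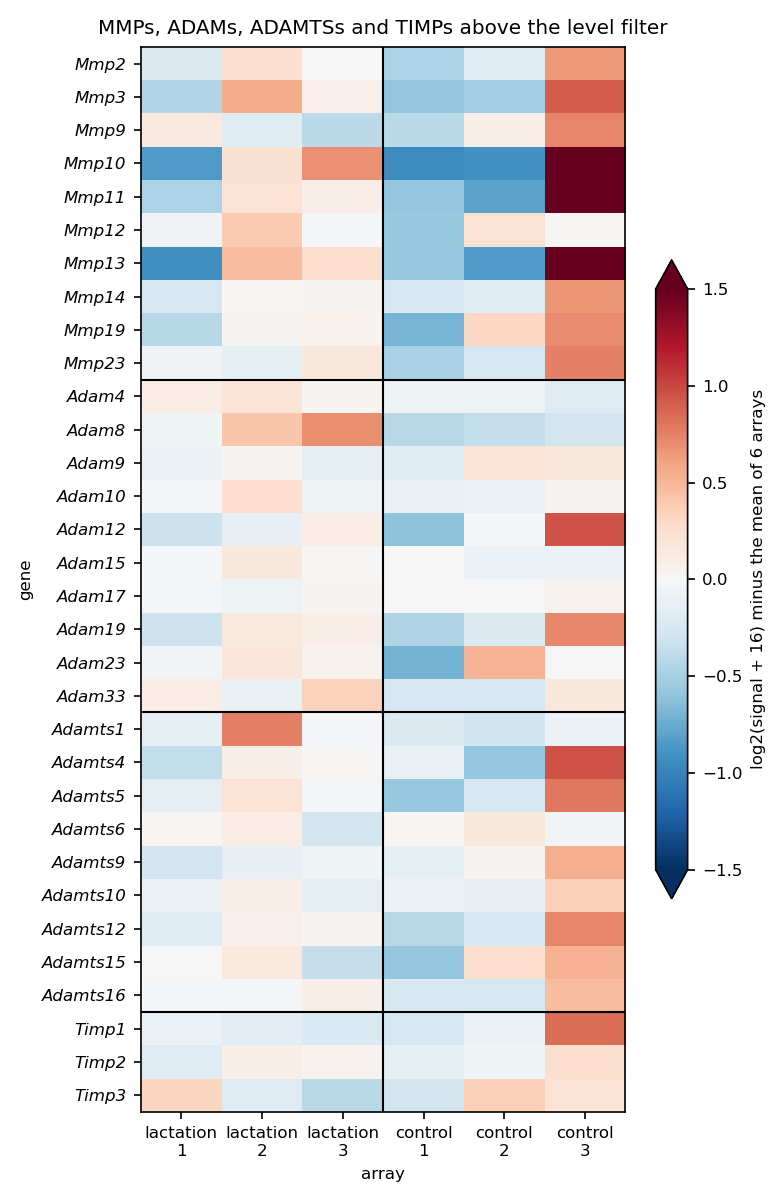
Each row is 1 of the 32 genes above the level filter and each column 1 array, and the colour is log2(signal + 16) minus the gene's mean over the 6 arrays (the scale ends at -1.5 and 1.5). Control replicate 3 carries the highest value in 21 rows, most of the MMP and ADAMTS rows among them, and Adam8 stands higher in the 3 lactation columns.

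The MMPs had a median SD of the log2 values of 0.27 in lactation and 0.69 in controls, against 0.15 in both groups over all genes. Mmp13, the collagenase of rodents, had signals of 3608, 9425 and 8179.6 in lactation, against 4590.1, 3768 and 20885 in controls. Mmp3, stromelysin 1, which activates other MMPs, measured 3346, 6652 and 4768 in lactation, against 3013, 3167 and 8542 in controls. Mmp10, stromelysin 2, measured 168, 372 and 516 in lactation, against 157, 161 and 1131 in controls. In each of these genes control replicate 3 was the highest of all tumours, the other controls sat at or near the bottom, and lactation replicates 2 and 3 came in between.

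Mmp11, stromelysin 3, a stromal gene of carcinomas, followed the same layout, with 487, 799.6 and 736 in lactation and 452, 387 and 2047 in controls. The log2 differences were -0.13 for Mmp13 (interval -1.71 to 1.46), 0.13 for Mmp3 (-0.89 to 1.14), 0.04 for Mmp10 (-1.78 to 1.85) and -0.11 for Mmp11 (-1.51 to 1.29). The intervals of Mmp10, Mmp11 and Mmp13 reach past 1 on the log2 scale in both directions. Without control replicate 3 the differences were 0.65, 0.61, 0.94 and 0.64, and without control replicate 1 they were -0.44, -0.14, -0.42 and -0.43. No member was called in either fit.

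**Figure D2:**
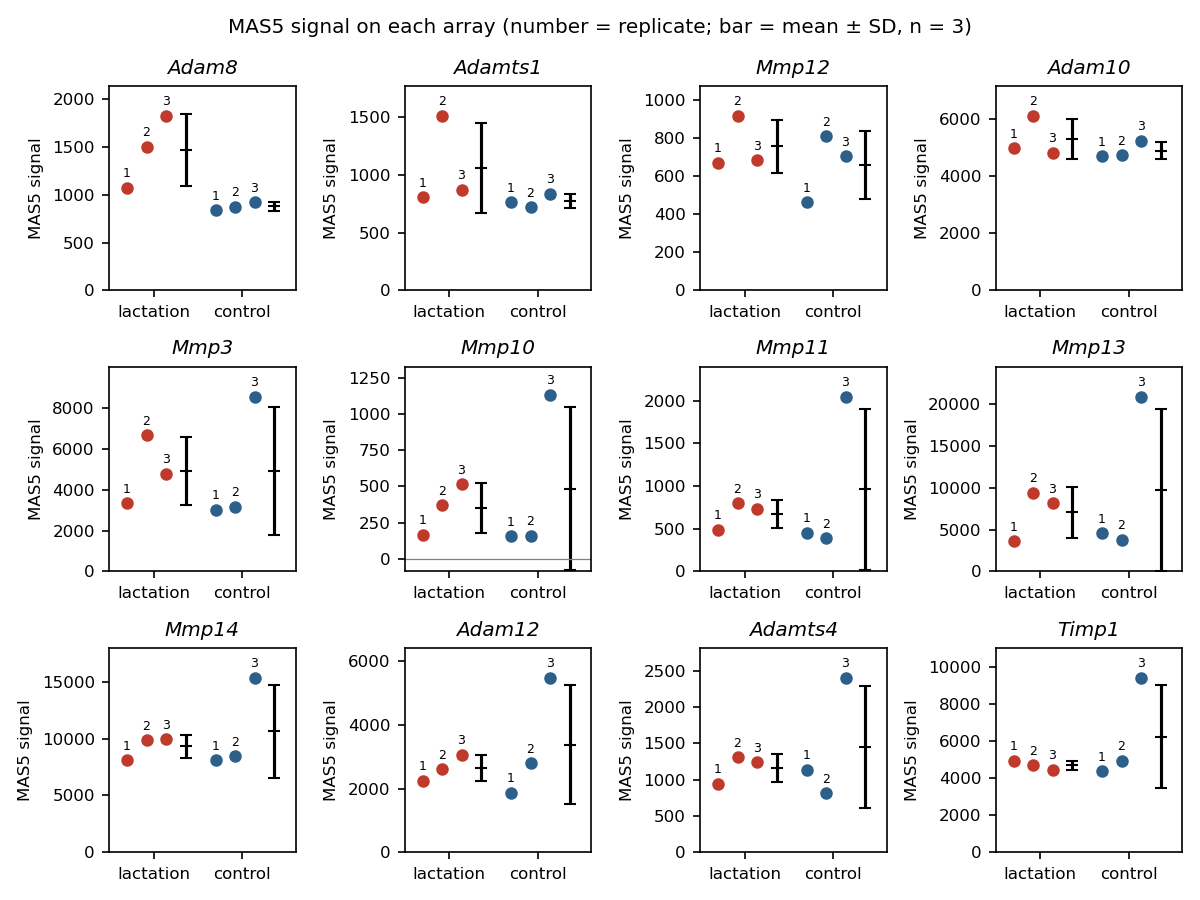
MAS5 signal (y axis) of 12 genes on each array, lactation in red to the left and control in blue to the right, with replicate numbers over the points and a bar for the mean ± SD (n = 3). Adam8 has groups that do not overlap, while in Mmp3, Mmp10, Mmp11, Mmp13, Mmp14, Adam12, Adamts4 and Timp1 the point of control replicate 3 stands above the other 5.

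Mmp14, the membrane-type protease that activates Mmp2, had signals of 8119, 9869 and 9951 in lactation, against 8085, 8457 and 15338 in controls. Mmp2, gelatinase A of fibroblasts, had 4556, 6258 and 5291 in lactation, against 3812, 4611 and 8241 in controls. The activator and its substrate had the same highest tumour, control replicate 3, and the same lowest one, control replicate 1. This layout is not particular to the pair: control replicate 3 was highest in 9 of 10 MMPs and control replicate 1 lowest in 8 of 10. Their log2 differences were -0.13 (interval -0.70 to 0.44) and 0.02 (interval -0.63 to 0.67). Mmp9, gelatinase B of neutrophils and macrophages, had 638, 504 and 433 in lactation, against 429, 618 and 962 in controls, a difference of -0.28 (interval -0.96 to 0.40) that was 0.01 without control replicate 3.

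Mmp12, the elastase of macrophages, did not have its highest value in control replicate 3. It measured 671, 919 and 685 in lactation, against 464, 812 and 706 in controls, a log2 difference of 0.22 (interval -0.31 to 0.75). Mmp19, a basement membrane protease, had 229.7, 324 and 327 in lactation, against 189, 395 and 526 in controls, and Mmp23, a transmembrane MMP, had 718, 678 and 839 in lactation, against 529, 625 and 1276 in controls. Their differences were -0.22 and -0.02. All these MMPs had overlapping groups.

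8 MMPs lay below the filter. Mmp24, a membrane-type MMP of neurons, and Mmp17, a GPI-anchored MMP, each had 2 of 6 arrays above their median. Mmp24 had 98.4, 119.8 and 132 in lactation, against 62.7, 84.1 and 73.3 in controls, with groups that did not overlap. In a fit with no filter its log2 difference was 0.57 (interval 0.07 to 1.07) with an unadjusted limma p of 0.0318 and an adjusted p of 1, and its dimmer probe sets had differences of 0.32 and 0.45. Mmp17 had signals of 71.7, 66.9 and 81.1 in lactation and 59.7, 104 and 121 in controls, with groups that overlapped. Mmp7 (matrilysin, an epithelial MMP) and Mmp8 (neutrophil collagenase) lay below the median on every array, Mmp7 with 9.74, 4.63 and 13.4 in lactation and 4.30, 69.0 and 13.4 in controls, and Mmp8 with 29.5, 24.1 and 23.6 in lactation and 35.5, 39.1 and 25.2 in controls.

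Mmp3, Mmp10, Mmp12 and Mmp13 belong to a run of 10 consecutive protein-coding Mmp genes on mouse chromosome 9 in the RefSeq annotation of GRCm38.p6, of which 9 are measured here. In chromosome order the measured genes are Mmp13, Mmp12, Mmp1b, Mmp3, Mmp1a, Mmp10, Mmp8, Mmp20 and Mmp7. 4 of the 9 were above the filter on 6 of 6 arrays, and the other 5 lay below the median on every array: Mmp1b and Mmp1a lie between genes above the filter, and Mmp8, Mmp20 and Mmp7 at the end of the run. Mmp1b and Mmp1a, the rodent relatives of interstitial collagenase, had signals of at most 27.5, and Mmp20, the enamel protease, at most 26.0. A level filter is not a detection call, and no detection calls were used here.

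**Figure D3:**
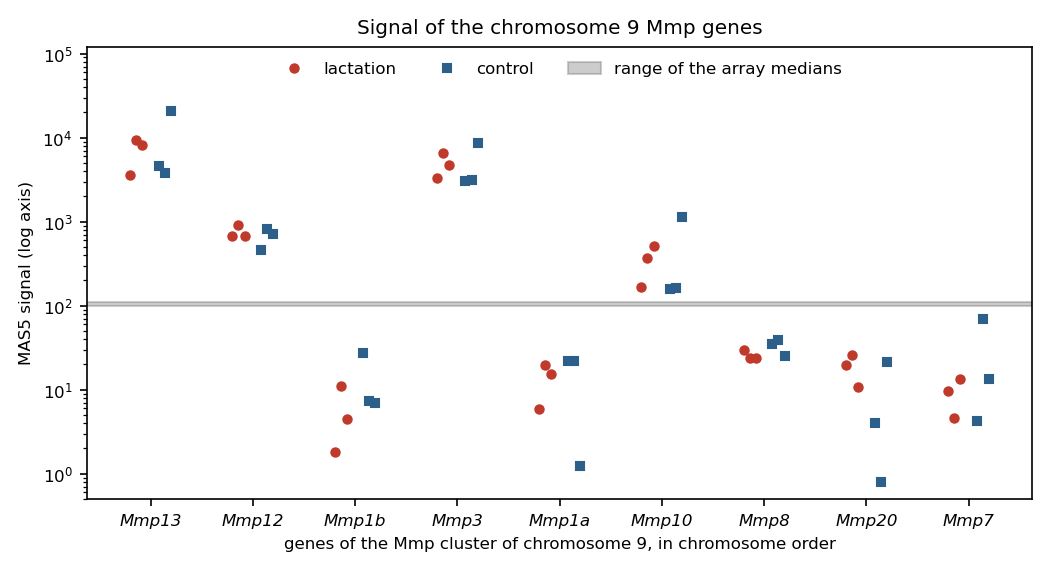
MAS5 signal (log axis) of the 9 measured Mmp genes of the chromosome 9 run, in chromosome order, with lactation arrays as red circles left of control arrays as blue squares; the grey band is the range of the array medians, 99.3 to 111. Mmp13, Mmp12, Mmp3 and Mmp10 lie above the band on all 6 arrays and the other 5 genes below it.

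The promoters of this run are shown because its genes above and below the filter share the same short motifs. AP-1, the Jun and Fos dimer, is known to drive collagenase and stromelysin genes through the motif TGAGTCA, and TATAAA is the TATA box. Both were searched on both strands, in RefSeq windows of 300 bases, 250 before to 50 after each annotated gene start; a match to the first on the other strand reads TGACTCA, and the motifs do not overlap each other. Of the 65 genes 37 had a window. The AP-1 motif was found in the windows of 9 of the 37, or 24.3%, beside 5.95% of 27025 genes, and 7 of the 9 belong to the chromosome 9 run, the other ones being Adam19 and Adam1b. The TATA motif was found in 12 of the 37, or 32.4%, beside 15.7% of all genes. Here 9 of the 12 belong to the chromosome 9 run, the other ones being Adam6a, Adam6b and Adamts1. The stretches below run from 120 bases before to 20 bases after the annotated start on GRCm38.p6, written 5′ to 3′ along the gene, with both motifs in capitals.
Mmp13, chr9:7272394-7272533, forward strand: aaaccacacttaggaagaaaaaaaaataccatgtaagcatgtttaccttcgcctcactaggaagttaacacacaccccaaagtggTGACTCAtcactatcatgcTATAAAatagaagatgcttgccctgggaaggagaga
Mmp12, chr9:7347254-7347393, forward strand: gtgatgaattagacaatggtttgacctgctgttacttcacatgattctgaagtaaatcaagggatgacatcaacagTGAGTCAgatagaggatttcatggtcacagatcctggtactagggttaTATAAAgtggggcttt
Mmp3, chr9:7445702-7445841, forward strand: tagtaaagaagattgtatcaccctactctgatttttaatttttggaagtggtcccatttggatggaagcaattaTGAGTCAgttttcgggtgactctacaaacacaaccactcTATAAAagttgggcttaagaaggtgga
Mmp10, chr9:7502222-7502361, forward strand: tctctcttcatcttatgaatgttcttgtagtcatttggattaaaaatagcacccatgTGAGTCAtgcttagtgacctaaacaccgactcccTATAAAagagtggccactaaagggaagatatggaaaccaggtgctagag
Mmp1b, chr9:7388007-7388146, reverse strand: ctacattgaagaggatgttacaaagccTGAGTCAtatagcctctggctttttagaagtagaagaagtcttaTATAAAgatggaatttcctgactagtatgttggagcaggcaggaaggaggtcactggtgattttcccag
Mmp1a, chr9:7464021-7464160, forward strand: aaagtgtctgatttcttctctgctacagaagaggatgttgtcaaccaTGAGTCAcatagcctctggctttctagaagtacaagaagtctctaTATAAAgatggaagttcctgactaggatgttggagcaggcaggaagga
Mmp7, chr9:7691970-7692109, forward strand: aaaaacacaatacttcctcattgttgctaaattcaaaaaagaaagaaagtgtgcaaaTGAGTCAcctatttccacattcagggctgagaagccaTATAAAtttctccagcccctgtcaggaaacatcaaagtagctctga

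In Mmp13 the AP-1 motif begins 35 bases before the annotated start and the TATA motif 16 before it, in Mmp3 these are 46 and 7 bases, and in Mmp10 they are 63 and 29. In the stretches shown, Mmp1b, Mmp1a and Mmp7 carry the same order of motifs at 93 and 49, 73 and 28, and 63 and 26 bases. Their signals lay below the array medians. The window of Mmp7 also holds a TATA motif that begins 123 bases before the start, ahead of the stretch shown. Mmp12 and Mmp7 each have a second annotated start, and the stretches above are from the starts whose windows hold the AP-1 motif. In Mmp12 that motif begins 44 bases before the start and the TATA motif 4 bases after it. Mmp8 and Mmp20 hold the TATA motif alone, and in Mmp8 the match is on the other strand only. The windows of Mmp11, Mmp14, Adam8 and Timp1 hold neither motif. Mmp11, Mmp14 and Timp1, like Mmp3, Mmp10, Mmp13 and Adam19, had their highest signal in control replicate 3. Mmp12 had its highest signal in lactation replicate 2. A relation of the motifs to the signals was not tested. A match in letters is a description of the window and not a measured binding site.

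ADAMTS genes were led on the higher side by Adamts1, a protease of versican and aggrecan that also limits angiogenesis. It had signals of 809.6, 1515 and 872 in lactation, against 762, 723 and 838 in controls. The groups overlapped by a small margin, and lactation replicate 2 was far above the rest. The log2 difference was 0.40 (interval -0.15 to 0.94), and 0.12 without lactation replicate 2.

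The other proteoglycan-cutting members above the filter had their highest signal in control replicate 3. Adamts4, an aggrecanase, had 944, 1306 and 1243 in lactation, against 1138, 816 and 2402 in controls. Adamts5, the main aggrecanase of mouse cartilage, had 415, 535 and 448 in lactation, against 304, 382 and 804 in controls. Adamts9, a versican-cutting protease, had 336, 376 and 391 in lactation, against 373, 424 and 607 in controls. The log2 differences were -0.18, 0.03 and -0.31, and without control replicate 3 they were 0.26, 0.43 and -0.11. Adamts15 had 392, 436 and 300.1 in lactation, against 255, 474 and 566 in controls, a difference of -0.14.

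Adamts12, known to cut cartilage oligomeric matrix protein, had 1166, 1409 and 1375 in lactation, against 997, 1133 and 2239 in controls, a log2 difference of -0.05 (interval -0.73 to 0.62). Adamts16, a gene of kidney and gonad development, had 309, 309.9 and 335 in lactation, against 263, 259 and 437 in controls, so that the lactation values lay between the control values. Adamts10, which acts with fibrillin microfibrils, had a difference of -0.09 and Adamts6 one of -0.10, and the highest signal of Adamts6, 529.8, was in control replicate 2. Adamts3, a procollagen processing enzyme, lay below the median on every array at 60.0, 101 and 75.8 in lactation and 49.3, 66.7 and 51.6 in controls, and Adamts7, Adamts8, Adamts18, Adamts19 and Adamts20 lay below it too. Adamts2 was not analysed here.

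Of the inhibitors, Timp1, which is induced in inflamed and fibrotic stroma, had signals of 4940.4, 4681 and 4462 in lactation, against 4357, 4927 and 9406 in controls. The 3 lactation values lie close together among the lower controls, and the 1 high value is again control replicate 3. The log2 difference was -0.32 (interval -0.95 to 0.31), and 0.02 without that tumour. Timp2, which also takes part in the activation of Mmp2 by Mmp14, had 7192, 8769.8 and 8482 in lactation, against 7416, 7845 and 9752 in controls, a difference of -0.03 (interval -0.32 to 0.27).

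Timp3, the matrix-bound inhibitor of Adam17 and the aggrecanases, had 1949, 1357 and 1166 in lactation, against 1278, 1995 and 1798 in controls. Its log2 difference was -0.19 (interval -0.73 to 0.35), and its highest value was in control replicate 2. Timp4, an inhibitor of heart and fat tissue, lay below the median on every array, with 57.0, 7.98 and 42.1 in lactation and 22.6, 64.8 and 7.50 in controls. No TIMP had groups that did not overlap.

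Set side by side, the families had median log2 differences of -0.06 for the 10 MMPs (4 higher, 6 lower), 0.12 for the 10 ADAMs (6 higher, 4 lower), -0.09 for the 9 ADAMTSs (3 higher, 6 lower) and -0.19 for the 3 TIMPs (3 lower). Over all members, whatever their level, the medians were -0.06 for 18 MMPs, -0.03 for 28 ADAMs, -0.06 for 15 ADAMTSs and -0.11 for 4 TIMPs. Differences between the families were not tested. Control replicate 3 was the highest of the 6 arrays in 9 of 10 MMPs, 3 of 10 ADAMs, 7 of 9 ADAMTSs and 2 of 3 TIMPs, together 21 of 32 genes or 65.6%, and in 22.1% of all 11622 genes. Control replicate 1 was the lowest of the 6 in 18 of the 32, or 56.3%, and in 14.6% of all genes.

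Leaving out either of these tumours moved the MMP median to either side of 0. Without control replicate 3, 27 of the 32 genes were higher in lactation and the median of the 10 MMPs was 0.35, with all 10 higher; without control replicate 1, 26 of the 32 were lower and the MMP median was -0.36, with all 10 lower. Without control replicate 1 the ADAM median was 0.02 (5 higher, 5 lower), and without control replicate 3 the TIMP median was 0.02 (2 higher, 1 lower). Over all genes the median was within 0.01 of 0 in both fits. The SD of the log2 values was larger among controls than among lactation tumours in 10 of 10 MMPs, 5 of 10 ADAMs, 7 of 9 ADAMTSs and 2 of 3 TIMPs, beside 51.8% of all genes. The median standard error of a difference was 0.25 in the 32 members and 0.14 in all genes. By family it was 0.33 in the MMPs, 0.17 in the ADAMs, 0.23 in the ADAMTSs and 0.23 in the TIMPs. A change of a given size was thus harder to see in these families, least so in the ADAMs.

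**Figure D4:**
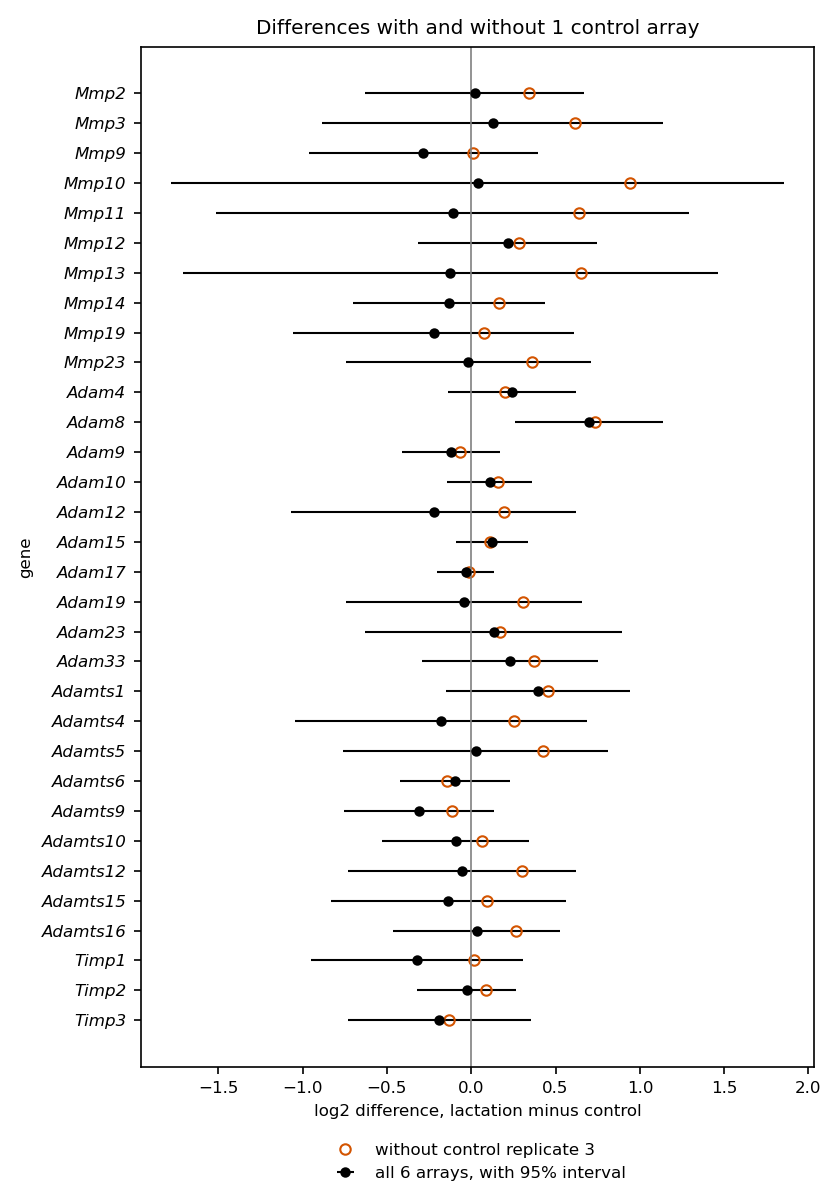
Log2 difference, lactation minus control (x axis), of the 32 genes above the level filter: black points with 95% intervals are from all 6 arrays and open orange points from the fit without control replicate 3. The interval of Adam8 lies above 0, at 0.26 to 1.14, and the orange points of all 10 MMPs lie above 0.

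Fibroblast and endothelial markers had their lowest and highest sums in the same control tumours, while the macrophage sum, given above, was highest in control replicate 2 and lowest in lactation replicate 3. All 10 fibroblast markers passed the filter, and their summed signal was 81740 to 91056 in lactation and 75177 to 115254 in controls, lowest in control replicate 1 and highest in control replicate 3. 9 of the 10 had their highest signal in control replicate 3. The collagen-binding proteoglycan gene Lum measured 5941, 7848 and 7889 in lactation, against 5313, 6895 and 13095 in controls. Pdgfra, whose highest signal was in control replicate 2, measured 2327, 2015 and 1458 in lactation, against 2221, 2675 and 2440 in controls. All 10 endothelial markers passed as well, with sums of 4877 to 5348 in lactation and 4470.4 to 7279.7 in controls, the highest in control replicate 3. The 10 skeletal muscle markers ran the other way in that tumour, with sums of 15116 to 86738 in lactation and 10977 to 85422 in controls, the lowest in control replicate 3. The part of these cell types in the MMP values was not tested.

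Other genes of the pathway were read from lists, and 0 genes of any list passed the adjusted test. Of 16 tested activators and further inhibitors 8 were higher and 8 lower, with a median log2 difference of 0.03. Plaur, the receptor that holds urokinase at the cell surface, had signals of 1495, 1559 and 1847 in lactation, against 1434, 1307 and 1249.5 in controls, with groups that did not overlap and a difference of 0.29 and an unadjusted limma p of 0.0330 (adjusted p of 1). Rhbdf2, which carries Adam17 to the cell surface, had 511, 644 and 648 in lactation, against 582, 419 and 422 in controls, a difference of 0.34. On the lower side Tspan17, a tetraspanin partner of Adam10, had 507, 631 and 621 in lactation, against 697, 693 and 799 in controls. Its groups did not overlap either, and its difference was -0.31 with an unadjusted limma p of 0.0400 (adjusted p of 1). Tspan33, another such partner, had a difference of -0.33.

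Of 10 tested relatives of the families 3 were higher and 7 lower, with a median of -0.12, which was 0.07 without control replicate 3 (6 higher, 4 lower) and 0.01 without control replicate 1 (5 higher, 5 lower). Adamtsl4, an ADAMTS-like protein of microfibrils, had a log2 difference of 0.32 and Mme, the cell surface peptidase neprilysin, one of 0.29, while Adamtsl5 had -0.38 and Bmp1, the procollagen C-proteinase, -0.30. Bmp1 had its highest signal, 2813, in control replicate 3, where the other tumours had 1327 to 1530. Of 21 tested proteins shed by Adam10 or Adam17, 14 had higher and 7 lower transcript signals, with a median of 0.09; without control replicate 2 the list had 9 higher and 12 lower and a median of -0.04. Tnf led with 0.96 and a single low control of 17.3, without which the difference was 0.28. Cx3cl1, the membrane-bound chemokine fractalkine, had a difference of 0.38, Il6ra, the interleukin 6 receptor, one of -0.26 and Axl, a receptor tyrosine kinase, one of -0.18. Of 15 tested matrix substrates 3 were higher and 12 lower, with a median of -0.04, and without control replicate 3 there were 11 higher and 4 lower, with a median of 0.11. Vcan, the versican gene, had -0.20 and Bgn, biglycan, -0.15, while Eln, elastin, had 0.15 and Thbs2, a matricellular protein, 0.03. In 11 of these 15 control replicate 3 was the highest array.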

How the data were processed

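Total RNA of 6 tumours, 3 per group, was labelled as biotinylated cRNA for a 3' Affymetrix array, per the labels' protocols. The deposited intensity values are MAS5 signals, per the submitters' processing notes, 1 for each of 45101 probe sets; no version was stated in these notes. Each array's mean after trimming 2% at both ends was 500.0, so arrays were already scaled, and no normalization was added. Of the probe sets 34958 carried 1 gene symbol; 5 that name a member beside another gene were left out. All 65 members matched the RefSeq table by Entrez identifier, with 65 symbols alike.

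Values were used as log2(signal + 16). Group was the single term in limma 3.58.1 (R 4.3.3; lmFit, then eBayes with an intensity trend), run on 11622 genes. Members under the filter were read from a fit on all 18194 genes. limma had 4 residual and 3.06 prior degrees of freedom. Intervals are limma's 95% ones, unadjusted. The number of arrays limits the precision. Other tables and plots used Python 3.11.15, pandas 2.3.3, numpy 2.4.6 and matplotlib 3.10.9.

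Named genes were a list of well-known members, and up to 4 tested members per family with the largest difference in each direction. Added to these were 2 genes per direction of each pathway list. Members past the threshold, or with probe sets that disagree by at least 0.5 each way, were to be named too (0 of both). Mmp23, Mmp24, Mmp17, Mmp1a, Mmp1b, Mmp20, Adam7, Adam32, Adamts3 and Adamts10 were chosen after their values were seen. The same holds for Lum, Pdgfra, Csf3r, Cxcr2, Camp, S100a8, S100a9, Csn1s1, Csn2 and Csn3. Members and lists were chosen with earlier results of these data known. Alternatives were other scalings, added constants, filters, probe set rules, weights per array, variance settings, a block for the replicate number, and each array left out.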

Additional observations from a re-analysis of the deposited data

Results flagged for a closer look

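A probe set shared by Adam1a and Mapkapk5, left out of the gene level because it names both, had signals of 193, 216 and 242 in lactation, against 174, 164 and 156 in controls (means of 217 ± 24.4 and 165 ± 9.21, SD, n = 3 each), with all lactation values above all control values. The other 3 probe sets shared by these genes overlapped between the groups, as did 1 shared by Adam6a and Adam6b, and the difference was not tested.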

How the results depend on the processing

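The choices concern scaling, constants, filters, probe sets, variance, weights and single arrays. No gene and no member passed the adjusted limma test in any of the 18 settings; at an unadjusted p under 0.05 limma gave 264 genes with all arrays, 138 to 651 on leaving out 1 array, and 183 to 577 in the other settings. Adam8 kept its direction in all settings, from 0.53 to 0.90. Of 605 comparisons with an alternative, 555 counted as unchanged, 49 reversed the sign of a gene's difference and 1 moved a family median. Unchanged means the same sign and side of the threshold for a gene, and 0 again for the counts past the threshold. For a family median it means a shift smaller than the SD, within groups, of the members' median on each array. A family median could thus change sign and still count as unchanged. Of the 30 named members above the filter, 20 changed sign on leaving out some array, and the cause was not tested. On leaving out 1 array the log2 differences ranged from -0.58 to 0.19 for Adam12, -0.28 to 0.31 for Adam19, -0.19 to 0.42 for Adam23, -0.28 to 0.30 for Adamts12, -0.46 to 0.0904 for Adamts15, -0.0923 to 0.27 for Adamts16, -0.51 to 0.26 for Adamts4, -0.25 to 0.43 for Adamts5 and -0.17 to 0.0196 for Adamts6. For the MMPs they ranged from -0.42 to 0.94 for Mmp10, -0.54 to 0.64 for Mmp11, -0.0127 to 0.38 for Mmp12, -0.58 to 0.65 for Mmp13, -0.30 to 0.17 for Mmp14, -0.63 to 0.0772 for Mmp19, -0.21 to 0.34 for Mmp2, -0.14 to 0.61 for Mmp3 and -0.56 to 0.0106 for Mmp9. Timp1 ranged from -0.54 to 0.0176, Timp2 from -0.11 to 0.0897, and the median of the ADAMTS members from -0.25 to 0.26, the highest without control replicate 3. When the probe sets of a gene were averaged, the differences were -0.28 for Adam10, -0.13 for Adam15, -0.0314 for Adam23 and 0.0927 for Adamts9. With array weights they were 0.0584 for Adam19, -0.0014 for Adam23, 0.0508 for Adamts12, 0.0338 for Adamts4, 0.18 for Mmp11, 0.20 for Mmp13 and 0.0085 for Timp2. With an added constant of 64, Mmp10 had -0.0061. Leaving out control replicate 1 gave 651 genes, leaving out lactation replicate 2 gave 413 and leaving out lactation replicate 3 gave 138, and with no filter 577 of 18194 genes passed the unadjusted threshold. With the replicate number as a block, 0 genes passed the adjusted and 290 the unadjusted threshold. Deviations of same-numbered samples correlated at 0.14, -0.08 and 0.27, so the numbers are not taken to pair the tumours, and not every sample correlated best with its own number. Dim members are limited by signal: 30 of 65 lay under the median on every array.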

Other observations

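Probe sets of 1 gene did not always run together. Adam10 has 4, and its dimmest, below the median on every array, had signals of 6.16, 6.48 and 16.6 in lactation, against 30.6, 44.9 and 38.1 in controls, with groups that did not overlap and a log2 difference of -1.08, where the brightest had 0.11 and the others -0.09 and -0.06. Adamts9 had -0.31 on its brightest probe set and 0.17 and 0.41 on the dimmer ones. The 6 probe sets of Timp2 ranged from -0.40 to -0.03 and the 4 of Timp3 from -0.20 to -0.12, all negative. The cause of these differences between probe sets was not tested.

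Among all 65 members, whatever their level, groups did not overlap in 4 that were higher in lactation (Adam8, Adam4, Adam7 and Mmp24) and 1 that was lower (Adam32), beside 774 and 641 of 18194 genes.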
